A study of Homo sapiens with 4 samples.

Results

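A set of 40 genes of the Wnt pathway was followed in TE5 cells, a human oesophageal squamous cell carcinoma line, with and without added ETS1, a transcription factor of the ETS family. The genes were chosen by symbol as ligands and secretion factors, receptors, inhibitors, Dishevelled proteins, destruction complex members and nuclear factors, and all 40 were among the 55764 gene names of the expression table. The 2 ETS1 libraries came from cells that stably carried a vector with human ETS1 behind a CMV promoter, delivered by lentivirus (labelled genotype ETS1 Overexpression). The 2 control libraries came from cells that carried the empty backbone (labelled WT), so both groups had been through viral delivery and selection. Whether the lines were pools or clones is not given in the sources used here. Nor do the labels say that the libraries of a group came from separate cultures, so p-values measure only the spread between these libraries, which may be technical.

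Wnt proteins are lipid-modified signals that leave the cell with the carrier WLS and bind Frizzled receptors. With an LRP5 or LRP6 co-receptor, this recruits Dishevelled and halts the destruction complex of AXIN, APC, GSK3 and casein kinase 1, so that beta-catenin persists and joins TCF/LEF factors on DNA. Frizzled also serves branches that do not use beta-catenin, for which WNT5A and WNT5B are the usual ligands, and in squamous epithelia the pathway is known for its part in stem cell maintenance and differentiation.

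The values were FPKM (fragment counts scaled to transcript length and library depth), so levels can be set against each other between genes on this length-scaled unit. Reads recovered from the tables summed to 40356723 and 44119604 in the controls and to 57269984 and 56502875 in the ETS1 libraries, 1.35 times as many. ETS1 itself had 0.491 and 0.509 FPKM (142 and 161 reads) in the controls and 1.84 and 1.87 FPKM (756 and 756 reads) in the ETS1 libraries, a 3.71-fold difference in the direction of the labels. Transcripts of the vector and of the cells' own ETS1 gene cannot be told apart here. The squamous genes KRT5, KRT14, TP63 and KRT6A were at 0 in each control and did not exceed 0.0165 FPKM in the ETS1 libraries, and KRT19, a simple epithelial keratin, did not exceed 0.0224 FPKM in any library. The simple epithelial keratins KRT8 and KRT18 were present. KRT18 was called lower, from 10.2 and 10.5 FPKM in the controls to 8.35 and 8.29 FPKM with ETS1 (limma adjusted p = 0.00223). Its partner KRT8 was called higher, from 3.91 and 3.87 FPKM to 6.48 and 6.59 FPKM (limma adjusted p = 0.000591), as was SOX2 (limma adjusted p = 0.0301). EPCAM had 1.37 and 1.36 FPKM in the controls and 0.915 and 1.12 FPKM with ETS1, and did not pass (limma adjusted p = 0.0525). CDH1, too low to be tested, had 0.571 and 0.567 FPKM in the controls and 1.08 and 0.916 FPKM with ETS1. The 10 squamous and epithelial markers summed to 18.8 and 19.5 FPKM in the controls and to 20.4 and 20.8 FPKM with ETS1. Markers of other cell types were low. The 6 fibroblast markers summed to 2.13 to 2.28 FPKM in the controls and 3.09 to 3.19 FPKM with ETS1, mostly COL1A1, and the 4 leukocyte markers to 1.12 to 1.35 and 1.88 to 1.97 FPKM, with the pan-leukocyte gene PTPRC at or below 0.0117 FPKM. CDH5, which defines endothelium, was listed at 0 in both controls and at no more than 0.00593 FPKM with ETS1. The part of these marker differences in the results was not tested.

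Of the 40 genes, 35 had a mean of at least 1 FPKM over the 4 libraries and were tested with limma on log2(FPKM + 1), with p-values adjusted over all 14306 genes that met this minimum. At an adjusted p of 0.05, 17 of the 35 (48.6%) were called, 11 higher and 6 lower with ETS1, and 18 did not pass. Over all tested genes 59.1% were called in either direction, 30.7% higher and 28.4% lower, so a call was common in these libraries and no more frequent among the members. The members' median change was 0.052 on the log2(FPKM + 1) scale, against 0.016 over all genes tested. Both ETS1 libraries lay above both controls for 19 of the 35 and below both for 10, where 43.1% and 38.9% of all tested genes did so (82.0% in either direction). A change on this scale understates the change of a gene with few FPKM. In bulk RNA, fewer cells that express a gene and less RNA per cell cannot be told apart.

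**Figure D1:**
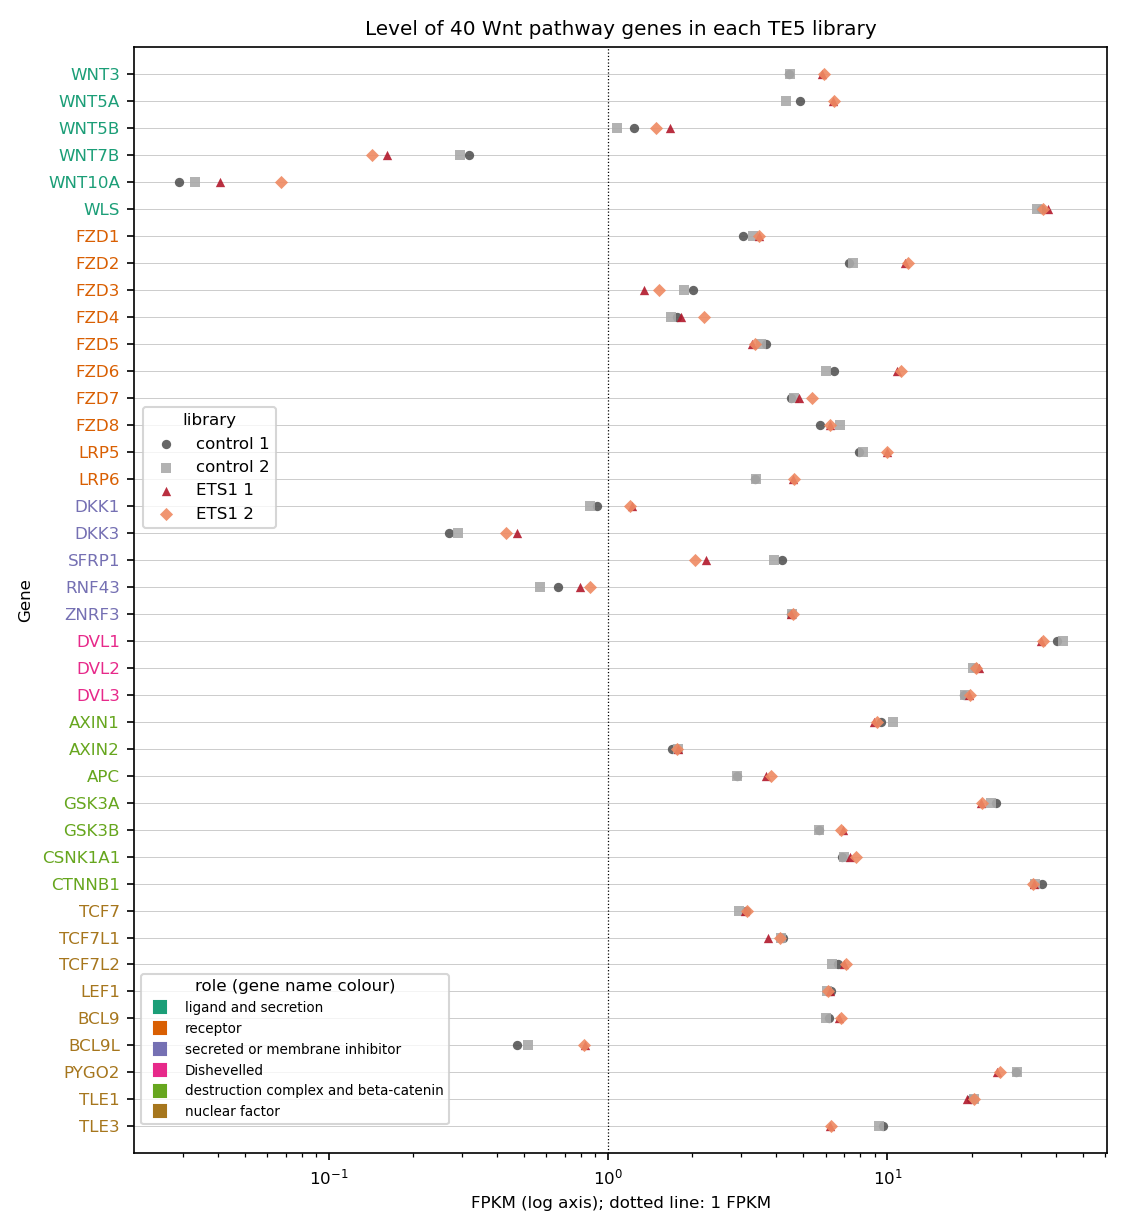
FPKM of each of the 40 genes in each library on a log axis, with 1 symbol per library, gene names coloured by role and the minimum of 1 FPKM as a dotted line. DVL1, WLS and CTNNB1 lie at the right end, above 30 FPKM, while WNT7B, WNT10A, DKK3, RNF43 and BCL9L fall below 1 FPKM in all 4 libraries.

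**Figure D2:**
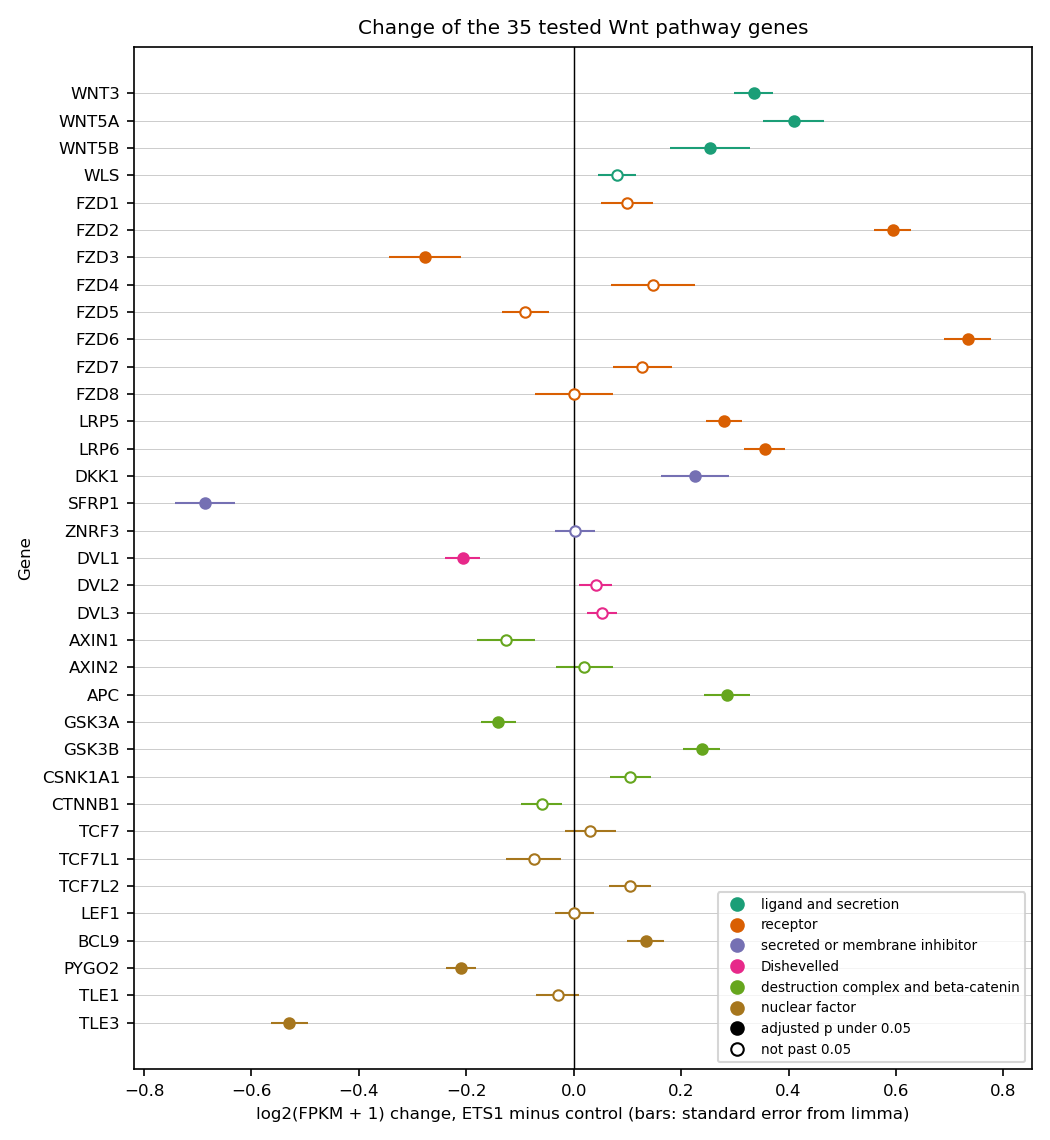
Change of the 35 tested genes on the log2(FPKM + 1) scale, ETS1 minus control (points), with the standard error from limma (bars) and an adjusted p under 0.05 shown as filled points. FZD6 and FZD2 have the highest values, 0.73 and 0.59, and SFRP1 and TLE3 the lowest, -0.69 and -0.53.

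Promoter sequence was examined because ETS factors bind DNA at a GGAA core. RefSeq starts (build GRCh38.p14) were matched for 29 of the 40 genes, and the 250 bases before the first-listed start of each were searched on both strands. GGAA, read as TTCC on the other strand, was found in 27 of the 29 windows (93.1%), against 92.8% of 27305 promoters and 92.3% of the promoters of tested genes, so this short core hardly separates any promoter from another. The longer ETS form CCGGAA, which holds GGAA, was present in 5 of the 29 (17.2%), namely DKK1, AXIN1, GSK3B, CSNK1A1 and TCF7, against 14.8% of all promoters and 25.95% of those of tested genes. CTTTGA, the core bound by TCF/LEF factors, was found in 1 of the 29, DKK1, with 2 matches, against 11.4% of all promoters and 7.17% of those of tested genes. The 4 windows shown belong to called genes and hold no annotated exon. They include 3 genes that rose, a co-receptor (LRP5) and 2 destruction complex members (APC and GSK3B), and 1 that fell (DVL1). Each is written in the direction of its gene, with GGAA and TTCC in capitals. They lie at chr5:112707248-112707497 (plus strand, APC), chr11:68312341-68312590 (plus strand, LRP5), chr3:120094448-120094697 (minus strand, GSK3B) and chr1:1349419-1349668 (minus strand, DVL1).
APC: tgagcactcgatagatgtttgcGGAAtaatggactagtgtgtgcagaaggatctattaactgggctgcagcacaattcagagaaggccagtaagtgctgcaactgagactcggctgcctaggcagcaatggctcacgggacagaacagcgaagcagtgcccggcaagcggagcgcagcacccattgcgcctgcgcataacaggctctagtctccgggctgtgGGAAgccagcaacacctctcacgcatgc
LRP5: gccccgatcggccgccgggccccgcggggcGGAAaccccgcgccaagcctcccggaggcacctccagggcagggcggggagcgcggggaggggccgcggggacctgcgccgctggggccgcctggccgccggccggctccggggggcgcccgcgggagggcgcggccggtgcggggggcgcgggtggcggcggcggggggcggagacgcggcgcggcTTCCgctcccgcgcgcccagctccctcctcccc
GSK3B: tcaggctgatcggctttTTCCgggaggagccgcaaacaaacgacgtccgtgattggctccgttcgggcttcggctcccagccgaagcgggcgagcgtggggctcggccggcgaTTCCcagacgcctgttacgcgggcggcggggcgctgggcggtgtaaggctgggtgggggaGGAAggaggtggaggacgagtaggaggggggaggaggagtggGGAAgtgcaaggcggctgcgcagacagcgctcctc
DVL1: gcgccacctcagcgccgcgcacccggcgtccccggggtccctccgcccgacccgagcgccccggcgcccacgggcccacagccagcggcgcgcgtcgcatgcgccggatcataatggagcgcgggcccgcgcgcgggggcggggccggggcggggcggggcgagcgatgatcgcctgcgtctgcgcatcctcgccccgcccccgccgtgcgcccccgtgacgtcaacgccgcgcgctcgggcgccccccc
The GSK3B window held 4 cores, 1 of them within CCGGAA, and the APC and LRP5 windows 2 each. DVL1, at 83.2% G and C, had none in this window. A match of letters is a description of the sequence and does not show that a factor binds there.

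Among the ligands and secretion factors of the set, 3 of the 4 tested genes rose and none of the 4 fell. Of all tested genes, 30.7% were called higher and 28.4% lower. Outside the set, the ligands WNT9A (-0.35, limma adjusted p = 0.00881) and WNT11 (-0.19, limma adjusted p = 0.0383) were called lower. So was the secretion gene PORCN (-0.18, limma adjusted p = 0.0119), while WNT10B did not pass (0.13, limma adjusted p = 0.328). WNT3, a ligand of the beta-catenin branch, had 4.43 and 4.46 FPKM in the controls and 5.82 and 5.93 FPKM with ETS1. Its change was 0.34 on the log2(FPKM + 1) scale (SE 0.036, limma adjusted p = 0.00192), or 1.32-fold in mean FPKM. WNT5A, the main ligand of the branches without beta-catenin, had 4.85 and 4.31 FPKM in the controls and 6.38 and 6.44 FPKM with ETS1. The groups did not overlap for either gene, and for WNT5A the change was 0.41 (SE 0.057, limma adjusted p = 0.00376), or 1.40-fold. WNT5B, its close relative, had 1.24 and 1.08 FPKM against 1.66 and 1.49 FPKM, a change of 0.25 (SE 0.074, limma adjusted p = 0.0358). That call was near the threshold and was lost when control 2 (0.20, limma adjusted p = 0.115), ETS1 library 1 (0.20, limma adjusted p = 0.161) or ETS1 library 2 (0.30, limma adjusted p = 0.0674) was left out, and also without a minimum level and under quantile normalization. Its change was 0.41 with a pseudocount of 0.1 and 0.45 on recovered reads, and 0.15 once the median of its neighbours was removed.

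WLS, the carrier that takes Wnt proteins to the cell surface, was among the most abundant of the 40 genes, with 35.4 and 34.2 FPKM in the controls and 37.6 and 36.2 FPKM with ETS1. It did not pass the test (0.081, SE 0.035, limma adjusted p = 0.104), although the groups did not overlap. With the median of its neighbours (0.20) removed, WLS was at -0.12 (limma adjusted p = 0.0162). Under quantile normalization it was called in the other direction, at 0.19 (limma adjusted p = 0.00848). The other 2 ligands were below the minimum. WNT7B had 0.318 and 0.295 FPKM in the controls and 0.162 and 0.143 FPKM with ETS1, from 65, 66, 47 and 41 reads, the only ligand of the set that was lower in both ETS1 libraries. In the fit without a minimum, in which 19.6% of 35055 genes were called, its change was -0.18 (limma adjusted p = 0.0377), a 2.01-fold lower mean FPKM. WNT10A was listed at 0.0290 and 0.0332 FPKM and at 0.0408 and 0.0673 FPKM with ETS1, which was only 4, 5, 8 and 13 reads, and a difference was not detectable at this depth (limma adjusted p = 0.391 without a minimum). The 5 ligands together summed to 10.9 and 10.2 FPKM in the controls and 14.1 FPKM in each ETS1 library, and WNT3 and WNT5A made up 85.8% ± 0.568 of that sum in the controls and 87.3% ± 0.855 with ETS1 (SD, n = 2 each).

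Of the 10 receptors tested, 4 were called higher and 1 lower, 5 in all, beside 59.1% of all tested genes, 30.7% higher and 28.4% lower. FZD6, a Frizzled used mostly in planar polarity, had 6.44 and 6.02 FPKM in the controls and 10.8 and 11.2 FPKM with ETS1, a change of 0.73 (SE 0.044, limma adjusted p = 0.000608), or 1.77-fold. FZD2, a receptor for WNT5A among others, had 7.30 and 7.52 FPKM in the controls and 11.6 and 11.8 FPKM with ETS1, a change of 0.59 (SE 0.034, limma adjusted p = 0.000585), or 1.58-fold. For both genes the gap between the groups was many times the difference between the libraries of a group. They lie at chromosome 8, 103298433 to 103332866 (FZD6, ENSG00000164930.11) and chromosome 17, 44557459 to 44559570 (FZD2, ENSG00000180340.6), on GRCh38.

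FZD3, another polarity Frizzled, went the other way, with 2.01 and 1.87 FPKM in the controls and 1.34 and 1.52 FPKM with ETS1, a change of -0.28 (SE 0.066, limma adjusted p = 0.0201), or 1.36-fold lower. Its position on chromosome 8 (28494205 to 28574268) lay in a stretch whose tested genes were lower as well, with a median of -0.33 over its 50 neighbours. With that median removed, the value turned to 0.056 (limma adjusted p = 0.414). The call was also lost without control 1 (-0.24, limma adjusted p = 0.0717), without ETS1 library 1 (-0.22, limma adjusted p = 0.0931) and without a minimum level (limma adjusted p = 0.0791). Removal of a length and GC trend gave -0.62, and a pseudocount of 0.1 gave -0.42.

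FZD1, FZD4, FZD5, FZD7 and FZD8 did not pass the test. Their changes ran from -0.090 (FZD5) to 0.15 (FZD4), and their mean FPKM in the controls from 1.72 (FZD4) to 6.23 (FZD8). With the median of its neighbours removed, FZD5 was at -0.24 (limma adjusted p = 0.00143). In FZD4, 19.0% of the annotated exon bases overlap PRSS23 on the opposite strand, and since the use of strand in counting is not stated, its reads may be shared. Summed over FZD1 to FZD8, Frizzled FPKM was 34.5 and 35.3 in the controls and 43.4 and 45.1 with ETS1. Nearly the whole difference came from FZD2 and FZD6, whose sum went from 13.6 ± 0.142 to 22.7 ± 0.450 FPKM, while the sum of the other 6 was 21.2 ± 0.680 in the controls and 21.5 ± 0.808 with ETS1 (SD, n = 2 each). FZD9 (3.37 and 3.89 FPKM in the controls, 3.25 and 3.21 FPKM with ETS1) did not pass. FZD10 (1.12 and 1.02 FPKM in the controls, 0.959 and 0.843 FPKM with ETS1) was below the minimum. Both are outside the set and these sums. The share of FZD2 and FZD6 in the FPKM of FZD1 to FZD8 was 39.8% and 38.4% in the controls and 51.6% and 51.0% with ETS1. An exact permutation test of such a share has 0.333 as its smallest two-sided p with 4 libraries, and the sums are given as values without a test.

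**Figure D3:**
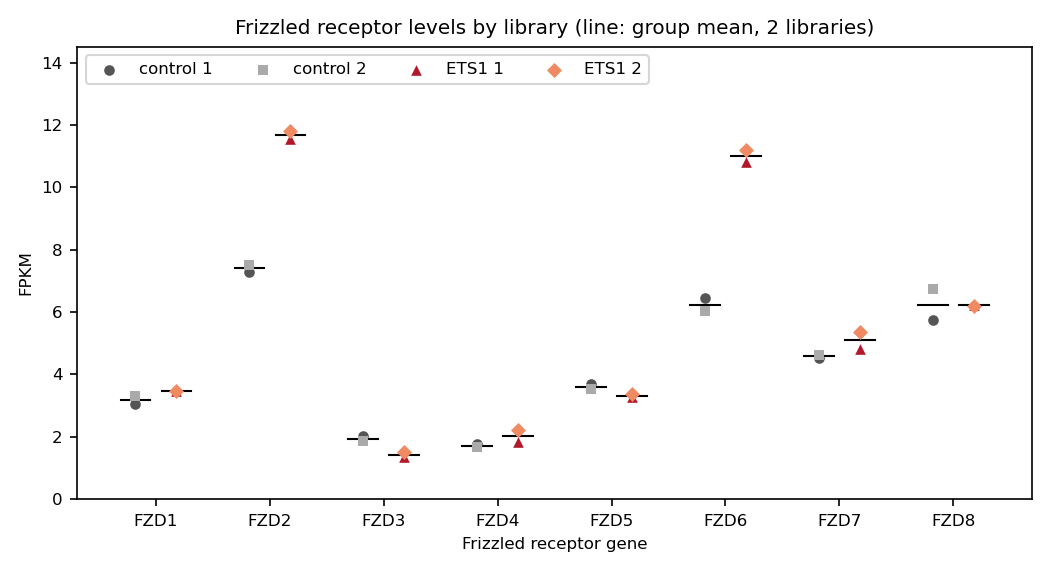
FPKM of the 8 Frizzled genes, with 1 symbol per library, controls at the left and ETS1 at the right of each gene, and lines at the mean of 2 libraries. FZD2 and FZD6 rise from means of 7.41 and 6.23 FPKM to 11.7 FPKM and to 10.8 and 11.2 FPKM in the ETS1 libraries, FZD3 is lower with ETS1, and the other 5 did not pass the test.

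The co-receptors LRP5 and LRP6, which pass the signal of Frizzled to the destruction complex, both rose. LRP5 had 7.90 and 8.17 FPKM in the controls and 9.94 and 9.99 FPKM with ETS1, a change of 0.28 (SE 0.034, limma adjusted p = 0.00264). LRP6 had 3.36 and 3.39 FPKM in the controls and 4.57 and 4.62 FPKM with ETS1, a change of 0.36 (SE 0.038, limma adjusted p = 0.00195). In neither case did the groups overlap. Their surroundings differed. The neighbours of LRP5 on chromosome 11 had a median change of 0.00056, and those of LRP6 on chromosome 12 a median of 0.24, so that 0.12 of the LRP6 change was left after its removal (limma adjusted p = 0.0344). After removal of a length and GC trend it was 0.17 (limma adjusted p = 0.0125).

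Of the 5 inhibitors, 3 were tested, 1 was called lower and 1 higher, beside 28.4% and 30.7% of all tested genes. SFRP1, a secreted decoy that binds Wnt proteins outside the cell, had 4.18 and 3.92 FPKM in the controls and 2.23 and 2.05 FPKM with ETS1, and was the most strongly lowered of the 35. Its change was -0.69 (SE 0.056, limma adjusted p = 0.00101), a 1.89-fold lower mean FPKM, and its 50 neighbours on chromosome 8 had a median of -0.19. DKK1, which binds LRP5 and LRP6 and blocks them, had 0.909 and 0.862 FPKM (81 and 84 reads) in the controls and 1.22 and 1.19 FPKM (154 and 149 reads) with ETS1. The change of 0.23 (SE 0.063) was called (limma adjusted p = 0.0315), but the gene lay just above the minimum level, and the call was lost on leaving out any 1 of the 4 libraries, with limma adjusted p between 0.0669 and 0.132. It was lost as well without a minimum, under quantile normalization, after removal of the median of its neighbours (0.11, limma adjusted p = 0.0927) and in the authors' deposited table (adjusted p = 0.171). The change was 0.41 with a pseudocount of 0.1 and 0.44 on recovered reads.

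ZNRF3, a ubiquitin ligase that removes Frizzled from the surface, ranged only from 4.51 to 4.58 FPKM over the 4 libraries and did not pass (0.0026, limma adjusted p = 0.958). Its relative RNF43 was below the minimum, between 0.569 and 0.659 FPKM in the controls and 0.791 and 0.858 FPKM with ETS1. In the authors' deposited table its log2 difference is 0.32 (adjusted p = 0.0448), and limma without a minimum did not call it (adjusted p = 0.166). Of its exon bases, 59.6% are shared with same-strand annotations, among them SUPT4H1, so its level is uncertain. DKK3, a distant relative of DKK1, had 0.269 and 0.291 FPKM in the controls and 0.472 and 0.430 FPKM with ETS1, from 55, 65, 137 and 123 reads. The groups did not overlap, and the change of 0.18 in the fit without a minimum did not pass (limma adjusted p = 0.0701).

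Of the Dishevelled proteins, which relay the signal from Frizzled, 1 of 3 was called, DVL1, which was lower, as were 28.4% of all tested genes. DVL1 had the highest mean FPKM of the 40 genes, with 40.6 and 42.4 FPKM in the controls and 35.6 and 36.1 FPKM with ETS1, a change of -0.21 (SE 0.033, limma adjusted p = 0.00548). DVL2 and DVL3 stayed between 18.7 and 21.3 FPKM in all libraries, with changes of 0.041 and 0.052 that did not pass. Under quantile normalization DVL3 was called, at 0.10 (limma adjusted p = 0.0335). DVL1 made up 51.4% ± 0.852 of Dishevelled FPKM in the controls and 46.9% ± 0.411 with ETS1 (SD, n = 2 each). Its call was lost under quantile normalization (-0.097, limma adjusted p = 0.0732), and removal of a length and GC trend left -0.13.

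In the destruction complex, which marks beta-catenin for degradation, 2 of 6 genes rose and 1 fell, where 30.7% of all tested genes were called higher and 28.4% lower. APC, the scaffold, had 2.90 FPKM in each control and 3.68 and 3.82 FPKM with ETS1, a change of 0.28 (SE 0.043, limma adjusted p = 0.00481). GSK3B, a kinase that phosphorylates beta-catenin, had 5.68 and 5.67 FPKM in the controls and 6.94 and 6.81 FPKM with ETS1, a change of 0.24 (SE 0.034, limma adjusted p = 0.00419). Both were higher in each ETS1 library than in either control, yet both have long transcripts of low GC content (41.0% in APC and 43.4% in GSK3B) and neighbours that were higher too, with medians of 0.19 and 0.18. With that median removed, 0.095 was left for APC (limma adjusted p = 0.0877) and 0.054 for GSK3B (limma adjusted p = 0.247). With a length and GC trend removed, APC was at 0.054 (limma adjusted p = 0.267) and GSK3B at 0.091 (limma adjusted p = 0.0717).

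The sister kinase GSK3A, which acts alongside GSK3B, was lower by contrast, from 24.5 and 23.6 FPKM in the controls to 21.6 and 21.8 FPKM with ETS1 (-0.14, limma adjusted p = 0.0171), so that the share of GSK3B in the FPKM of both was 19.1% ± 0.407 in the controls and 24.1% ± 0.409 with ETS1 (SD, n = 2 each). The GSK3A call was lost without ETS1 library 1 (-0.13, limma adjusted p = 0.0962), without ETS1 library 2 (-0.15, limma adjusted p = 0.0751), under quantile normalization (limma adjusted p = 0.112) and after removal of a length and GC trend (limma adjusted p = 0.0511). AXIN1, the second scaffold of the complex, had a mean of 9.99 ± 0.716 FPKM in the controls and 9.06 ± 0.196 FPKM with ETS1 (SD, n = 2 each) and did not pass (-0.13, limma adjusted p = 0.102). Without control 1 it did pass (-0.19, limma adjusted p = 0.0217), and the authors' deposited table also has it lower (-0.16, adjusted p = 0.0201). CSNK1A1, the casein kinase that primes beta-catenin, did not pass (0.11, limma adjusted p = 0.0680), and 37.4% of its exon bases overlap a same-strand annotation.

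CTNNB1, the gene of beta-catenin itself, had 35.9 and 33.6 FPKM in the controls and 33.4 and 33.2 FPKM with ETS1. This difference was smaller than that between the 2 controls and did not pass (-0.059, SE 0.038, limma adjusted p = 0.236), though removal of a length and GC trend gave -0.15 (limma adjusted p = 0.0126). The amount and location of the protein, on which the pathway mainly acts, were not measured. AXIN2, both a member of the complex and a widely used target of beta-catenin, had 1.69 and 1.78 FPKM in the controls and 1.77 FPKM in each ETS1 library. Its ETS1 values lay within the range of the controls (0.020, SE 0.054, limma adjusted p = 0.767), and 25.2% of its exon bases overlap a same-strand annotation.

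Among nuclear factors, 1 of 8 tested genes rose and 2 fell, against 30.7% and 28.4% of all tested genes. The TCF/LEF factors, which carry beta-catenin on DNA, did not pass the test. LEF1 had 6.27 and 6.07 FPKM in the controls and 6.20 and 6.14 FPKM with ETS1, and its groups overlapped (0.0011, SE 0.036, limma adjusted p = 0.983). The neighbours of LEF1 on chromosome 4 were higher by a median of 0.19, and with this removed its value was -0.19 (limma adjusted p = 0.00310). Likewise TCF7 was at 0.031 (limma adjusted p = 0.592) and, with the median of its neighbours removed, at -0.13 (limma adjusted p = 0.0294). TCF7L1 was at -0.075 and TCF7L2 at 0.10, and TCF7L2 passed on recovered reads (0.12, limma adjusted p = 0.0493). Summed FPKM of the 4 factors was 19.9 ± 0.539 in the controls and 20.3 ± 0.334 with ETS1 (SD, n = 2 each).

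TLE3, a co-repressor of the Groucho family that sits on TCF/LEF factors, had the clearest fall in the nucleus. It had 9.60 and 9.33 FPKM in the controls and 6.22 and 6.28 FPKM with ETS1, a change of -0.53 (SE 0.034, limma adjusted p = 0.000669), or 1.51-fold lower. TLE3 lies on chromosome 15 (70047790 to 70098176), where 81.4% of 344 tested protein-coding genes had a negative change and the median was -0.23. Its own neighbours were at a median of -0.16, and -0.37 was left after removal. TLE1, a close relative, stayed between 19.2 and 20.5 FPKM and did not pass (-0.030, limma adjusted p = 0.551), so TLE3 made up 32.5% and 31.3% of the FPKM of both in the controls and 24.5% and 23.5% with ETS1. With the median of its neighbours removed, TLE1 was at -0.15 (limma adjusted p = 0.00994).

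PYGO2 and the BCL9 proteins link beta-catenin to chromatin. PYGO2 had 28.8 and 29.2 FPKM in the controls and 24.6 and 25.2 FPKM with ETS1, a change of -0.21 (SE 0.029, limma adjusted p = 0.00360), which was -0.13 under quantile normalization. BCL9 was slightly higher, from a mean of 6.09 to 6.78 FPKM (0.13, SE 0.035, limma adjusted p = 0.0263). This small rise was not called without control 2 (0.12, limma adjusted p = 0.0814), ETS1 library 1 (0.14, limma adjusted p = 0.102) or ETS1 library 2 (0.12, limma adjusted p = 0.148), nor in the authors' deposited table (adjusted p = 0.0994), without a minimum, under quantile normalization (0.074) or after removal of the median of its neighbours (0.051). Its paralogue BCL9L, below the minimum, had 0.471 and 0.517 FPKM in the controls and 0.824 and 0.820 FPKM with ETS1, from 200, 240, 497 and 488 reads. In the fit without a minimum its change was 0.29 (limma adjusted p = 0.0466), and in the authors' deposited table the log2 difference is 0.66 (adjusted p = 2.09e-05). Since 38.8% of its exon bases overlap CXCR5, UPK2 and MIR4492 on the opposite strand, that level is uncertain.

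The chromosomal surroundings were set beside each change because genes of some regions moved together. For each tested gene the median change of up to 25 tested protein-coding genes on either side was taken. Chromosome 8 had a median of -0.15 over 381 genes and chromosome 15 a median of -0.23, against 0.035 over all 10863 genes with a position. Among the called members, FZD3 was the 1 whose change was no farther from 0 than that of its neighbours. FZD6, also on chromosome 8, had neighbours at 0.041, and FZD2 at 0.052, and their changes were 0.69 and 0.54 after removal. With the local median removed, in a fit of these 10863 genes in place of 14306, 7 members were called higher and 10 lower, in place of 11 and 6, and 3523 and 3592 genes in all.

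**Figure D4:**
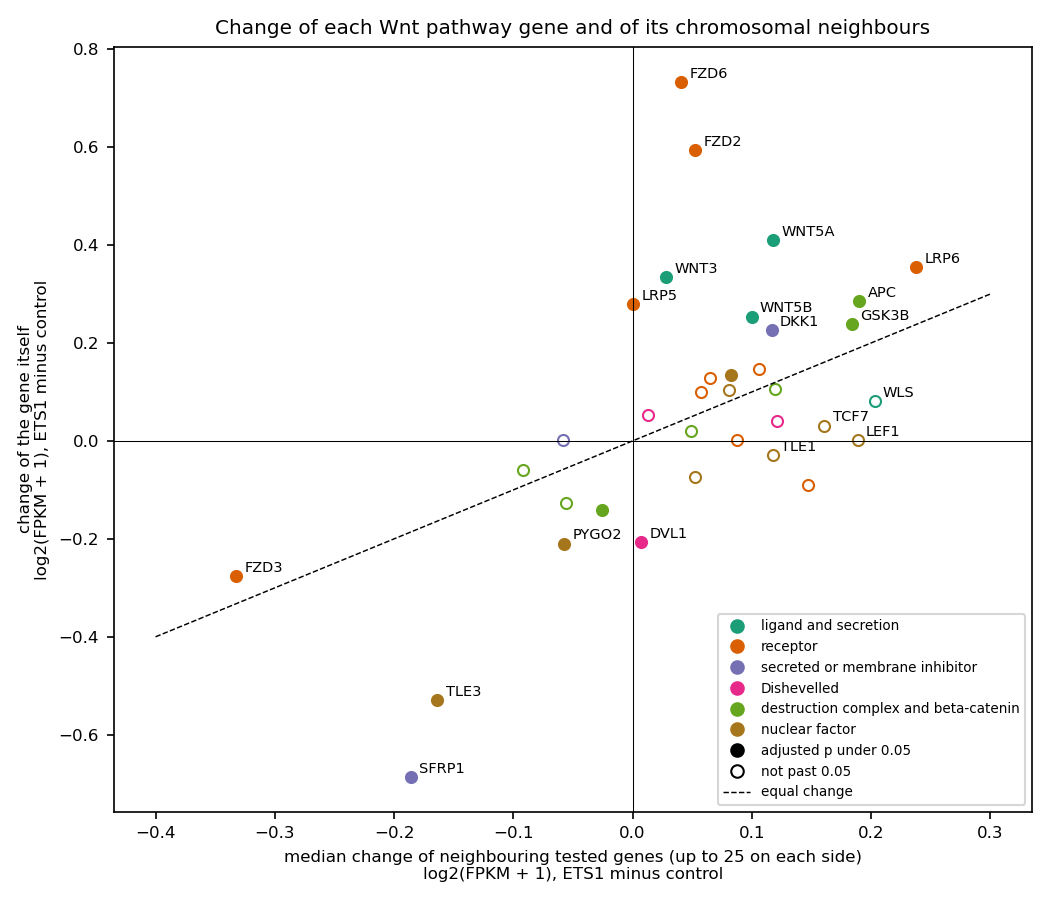
Change of each tested Wnt pathway gene (vertical) against the median change of its chromosomal neighbours (horizontal), both on the log2(FPKM + 1) scale, ETS1 minus control, coloured by role, filled where the adjusted p was under 0.05, with a dashed line of equal change. FZD6, FZD2 and LRP5 stand above neighbours near 0, FZD3 lies beside the line at the left, and LEF1, TCF7 and WLS lie below it at the right.

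A further 75 genes of the pathway were taken as a list by known function. Of these, 45 were tested and 24 (53.3%) called, 17 higher and 7 lower, beside 59.1%, 30.7% and 28.4% of all tested genes. Their median change was 0.083. On the log2(FPKM + 1) scale, the tested genes with the largest changes were TLE4, VANGL2, TNKS2, CBY1 and CSNK1G3; by ratio of mean FPKM the order differs. TLE4, another Groucho co-repressor, went up where TLE3 went down, from 11.8 and 11.3 FPKM to 18.4 and 18.8 FPKM (0.64, SE 0.034, limma adjusted p = 0.000524). VANGL2, a core protein of planar cell polarity, rose from 5.37 and 5.50 FPKM to 8.65 and 8.92 FPKM (0.61, SE 0.036, limma adjusted p = 0.000608). CBY1, which binds beta-catenin and opposes it, fell from 25.3 FPKM in each control to 17.95 and 17.92 FPKM (-0.48, SE 0.027, limma adjusted p = 0.000557). TNKS2, a tankyrase that promotes the breakdown of AXIN, was higher by 0.52 (SE 0.071, limma adjusted p = 0.00371) and the casein kinase CSNK1G3 by 0.39 (SE 0.057, limma adjusted p = 0.00437). The number of rising genes was 11 without ETS1 library 2, and the number of falling genes was 4 without ETS1 library 1 and 4 without ETS1 library 2. Over all 14306 tested genes, 2845 were called higher without ETS1 library 2, and 3082 and 2945 lower without ETS1 library 1 and 2, in place of 4394 and 4057.

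A list of 30 genes known as targets of beta-catenin in various tissues was also taken. It shares LGR5, NKD1, NOTUM and APCDD1 with the previous list, and NOTUM, which rose, is counted in both. Of the 30 genes, 20 were tested and 13 (65.0%) called, 10 higher and 3 lower, where 59.1% of all tested genes were called, 30.7% higher and 28.4% lower. The median change was 0.16. The members AXIN2, LEF1, TCF7, ZNRF3, DKK1 and RNF43 are also known as targets and are not counted in this list. AXIN2 (0.020), LEF1 (0.0011), TCF7 (0.031) and ZNRF3 (0.0026) did not pass. DKK1 (0.23) was called, though not in the authors' deposited table, and RNF43 was below the minimum. SNAI2, a repressor of epithelial genes in epithelial-mesenchymal transition, had 4.86 and 4.54 FPKM in the controls and 26.9 and 28.4 FPKM with ETS1, 5.88-fold higher (2.33, SE 0.046, limma adjusted p = 0.000207). CCND1, which encodes cyclin D1 and is a classical target, went the opposite way, from 7.10 and 7.32 FPKM to 3.81 and 3.74 FPKM (-0.78, SE 0.038, limma adjusted p = 0.000482). Thus the targets did not share a direction. ID2, an inhibitor of helix-loop-helix factors, was higher by 0.65, the transcription factor SOX9 by 0.64 and its relative SOX4 by 0.56, each past the limma threshold. These genes have many other regulators, and beta-catenin activity was not measured.

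**Figure D5:**
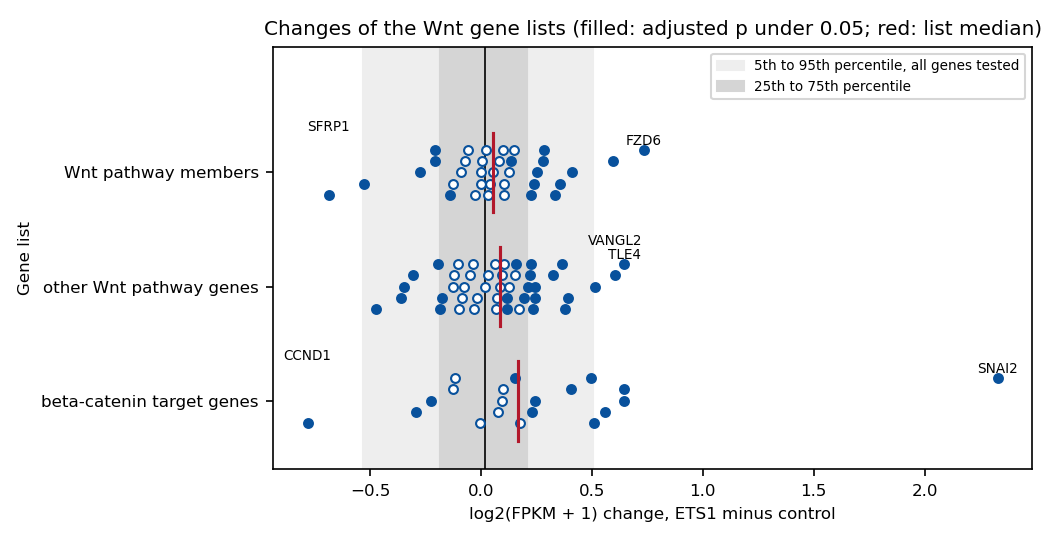
Changes of the tested genes of the 3 lists on the log2(FPKM + 1) scale, ETS1 minus control, 1 point per gene, filled where the adjusted p was under 0.05. Red lines are the list medians (0.052, 0.083 and 0.16), the black line is the median of all genes tested (0.016), and grey bands hold the middle of all genes (-0.19 to 0.21, and -0.53 to 0.50). Vertical offsets carry no value, and the genes with the largest absolute changes of each list are named.

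In the authors' deposited table, an adjusted p under 0.05 was given to 51.2% of the 15683 genes that have one. Among the 35 members tested with limma, it had 15 of the 17 called members past that threshold, each in the same direction, without DKK1 and BCL9, and AXIN1 in addition. Of the members below 1 FPKM it also had RNF43 and BCL9L past the threshold.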

How the data were processed

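Bulk RNA-seq of 4 TE5 libraries was used, 2 per group. The deposited FPKM were computed by the authors. Per the submitters' processing notes, HISAT2, HTSeq and DESeq2 and the build hg38 (GRCh38) were used, with no version or role given; the annotation used and whether counting was stranded are not given in the sources used here. A second table, of 16652 genes, holds per the file headers the authors' mean normalized count (a signal over the 4 libraries) and log2 fold change with its standard error. It also holds the authors' p-value and adjusted p-value. Whether the fold changes were shrunk is not stated. The p-value equalled that of the fold change over its standard error, within 1% of z, in 1.02% of the genes compared. The deposited fold changes may therefore not be on the scale of the other changes given here.

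The values were FPKM, so limma 3.58.1 (R 4.3.3) was used on log2(FPKM + 1), with a pseudocount of 1, a minimum mean of 1 FPKM, a group term, an intensity trend and Benjamini-Hochberg adjustment over 14306 genes. There were 2 residual and 2.84 prior degrees of freedom. Sums and shares were given without a test.

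Reads were recovered from FPKM, gene length and the authors' mean count; 99.7% of values were whole to within 0.05 reads (10% if fractions were evenly spread). For WNT7B, WNT10A and DKK3, lengths came from GENCODE 29, which also gave positions, exons and GC content by symbol. Recovered reads limit precision by counting error only.

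The 40 members, the gene lists and the alternatives were chosen with earlier results of these data known. FPKM in every library was printed for called members with an absolute change of at least 0.2. It was also printed for members whose mean FPKM differed by at least 0.5 on the log2 scale. The 3 most abundant members and CTNNB1, AXIN2 and LEF1 were included too. Of the other lists, at most 5 genes were named by size of change. WNT9A, WNT10B, WNT11, PORCN, FZD9 and FZD10 were named beside related members. Endothelial marker PECAM1 was not analysed here. The limma step was tested on simulated data with few or no changed genes and a spread set in advance. In these data 59.1% of tested genes were called, so that simulation does not show how the fit performs here. The 15 alternatives changed the pseudocount, the minimum level, the scaling, the replicate block, the variance prior, the libraries, the test (authors' values, or voom on recovered reads), or removed the local median or a length and GC trend.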

Additional observations from a re-analysis of the deposited data

How the results depend on the processing

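Of the 17 called members, 9 kept their direction and their side of the threshold under every alternative in which they were tested (WNT3, WNT5A, FZD2, FZD6, LRP5, LRP6, SFRP1, PYGO2 and TLE3), and 16 kept their direction. The exception was FZD3, at 0.056 with the local median removed. With a mean of at least 5 FPKM, which leaves 21 members, 7 were called higher; among the other lists 6 targets rose and 4 other Wnt genes fell, and 2562 of the 8215 genes tested were higher, since fewer genes were tested. With the local median removed, in a fit of 10863 genes, 7 members were higher and 10 lower. Leaving out 1 library at a time gave 11 to 15 rising and 4 to 8 falling other Wnt genes, and 2845 to 3962 rising genes in all (2845 without ETS1 library 2), with fewer samples in each fit.

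Of the 18 members not called, 11 passed under at least 1 alternative and 10 changed sign. Under trimmed-mean scaling the values were -0.018 (FZD8), -0.015 (ZNRF3) and -0.018 (LEF1). Under quantile normalization they were -0.060 (FZD8), -0.055 (ZNRF3), -0.022 (AXIN2), 0.056 (CTNNB1), -0.0093 (TCF7), -0.062 (LEF1) and 0.020 (TLE1). With the local median removed they were -0.12 (WLS), -0.086 (FZD8), -0.080 (DVL2), -0.029 (AXIN2), -0.014 (CSNK1A1), 0.032 (CTNNB1), -0.13 (TCF7) and -0.19 (LEF1). With a length and GC trend removed they were -0.014 (ZNRF3), -0.059 (CSNK1A1), -0.026 (TCF7) and -0.035 (LEF1). The authors' deposited values were -0.024 (FZD8), -0.019 (ZNRF3) and -0.021 (LEF1), and recovered reads gave -0.0022 for FZD8. Leaving out 1 library at a time gave -0.0997 to 0.10 for FZD8, -0.0073 to 0.013 for ZNRF3, -0.0040 to 0.044 for AXIN2, -0.0011 to 0.064 for TCF7, -0.019 to 0.021 for LEF1 and -0.072 to 0.012 for TLE1. The cause was not tested.

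With the replicate number as a block, 9 members were called higher and 6 lower, and 3712 genes were higher and 3571 lower in all; DKK1 and BCL9 lost their calls (limma adjusted p = 0.0687 for each). The replicate differences of the groups correlated at -0.0456 over genes, so the numbers were not taken to pair the libraries. No scaling moved the median of all genes beyond 0.016. The 5 members below 1 FPKM rest on between 4 and 497 reads per library.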
